A study of Arabidopsis thaliana with 6 samples.

Results

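The genes described here encode proteins of the large (60S) subunit of the cytosolic ribosome of Arabidopsis thaliana. A list of 60 such loci in 24 protein families was matched to the array's annotation, and a gene was used where a probe set was assigned to it alone. This held for 40 of the 60 genes, of 13286 genes with such a probe set in all, and each of the 40 had exactly 1. Of the other 20 genes, 4 are named only by probe sets shared between several genes, and none of the 20 is analysed here. The families RPL3, RPL5, RPL10, RPL23a and RPL24 therefore have no value, and 19 families have at least 1 measured gene.

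The large subunit joins amino acids into protein, guides the new chain out through an exit tunnel, and carries stalks that recruit translation factors. Plants encode nearly every ribosomal protein in a small family of paralogues, and a ribosome holds 1 protein from each family. Root tips contain dividing, protein-building cells, and ribosomal protein transcripts are known to be abundant there. Mutants in single paralogues often have narrow leaves, altered leaf polarity or embryo defects, so paralogues are not always interchangeable. Family names and roles are given here as background, because the files name all but 1 of these genes by locus only.

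The plants were Col-0 wild type, the common laboratory accession, raised for 7 days with shaking in liquid MS medium under continuous light. Seedlings received either synthetic CLE10 peptide or synthetic CLE25 peptide, both at 1000 nM for 12 h, and RNA came from the terminal 5 mm of the root. CLE peptides are small secreted plant signals that act through receptor kinases at the cell surface. There were 3 arrays per peptide (n = 3 for each mean below), and the series was made to find genes behind the different effects of both peptides. No array of untreated roots is analysed here, so no value below is a response to a peptide.

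Each value is a probe-set signal on a linear scale, with the trimmed mean near 500 on every array (500.048 to 500.053) and medians from 157 to 172. One array stood apart for the genes described here, CLE25 replicate 1, and several counts, medians and gene values that it moved are also given without it. Its 99th percentile of signal was 10987, against 9745 to 10472 on the other 5 arrays. The root-tip label could be checked on few markers: the meristem regulators BBM and JKD had group means between 103 and 147, and the root hair expansins EXPA7 and EXPA18 between 1564 and 3219. The green-tissue marker LHCB4.1 had 121 ± 27.9 (SD) with CLE10 and 91.6 ± 46.1 with CLE25, and no root cap marker of the list had a probe set of its own. The means of BBM, JKD and LHCB4.1 lay under the array medians and not far from 92.3, the signal limit for testing. They therefore cannot tell meristem from green tissue. The sugar exporter gene SWEET11, the only measured one of 3 phloem markers, averaged 501 ± 162 on the CLE10 arrays and 299 ± 107 on the CLE25 arrays. Its log2 fold change was -0.76 ± 0.27 (SE; limma unadjusted p = 0.018, adjusted p = 0.999), and its groups overlapped. The endodermal receptor kinase gene GSO1 had 608 ± 55.6 (SD) and 598 ± 59.2, and the xylem marker GUT2, a xylan synthesis gene, had 273 ± 13.8 and 291 ± 24.4. The part of these cell types in the values below was not tested.

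With either peptide, 37 of the 40 measured genes gave strong signals, with means over the 6 arrays from 2704 to 22925. At an adjusted p of 0.05, 0% of all tested probe sets and none of these 37 genes were called different between the peptides. With 3 arrays per peptide, this does not show that they were equal. Of the 37, 28 had a slightly higher value with CLE25 and 9 a slightly lower one, and the log2 fold changes ran only from -0.19 to 0.18. On CLE25 replicate 1, 24 of the 37 genes had their highest signal, and without this array 20 genes were higher and 17 lower.

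The 3 other genes were dim, and their mean log2 values lay under the limit for testing, which corresponds to a signal near 92.3. AT3G51190, of the RPL8 family whose protein lies close to the catalytic centre, had 2.58, 10.1 and 30.7 with CLE10 and 26.2, 21.2 and 36.5 with CLE25. AT3G48960 of the RPL13 family had 51.3, 81.7 and 42.1 with CLE10 and 113, 62.5 and 52.4 with CLE25. AT2G47570 of the RPL18 family had 23.1, 39.3 and 37 with CLE10 and 24.5, 25.7 and 33.3 with CLE25. In all 3 the groups overlapped. The RPL13 and RPL18 families each had another paralogue with a strong signal on every array, AT5G23900 (5959 to 7825) and AT5G27850 (15119 to 22966). A signal also depends on how well the probes bind, so signals of different probe sets do not rank the paralogues by transcript level.

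**Figure D1:**
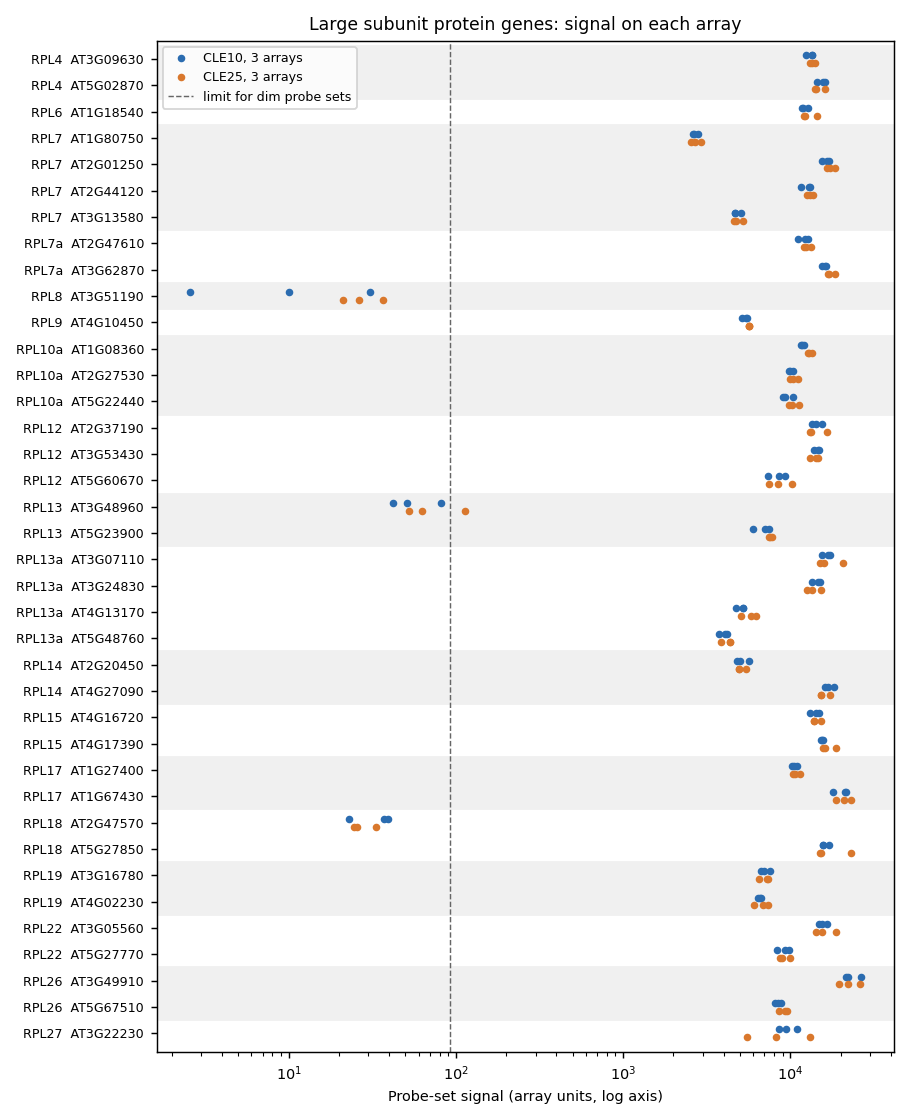
Signal of 38 of the 40 measured genes on each of the 6 arrays (log axis, array units), grouped by protein family, with CLE10 arrays in blue and CLE25 arrays in orange. A set of 35 genes lies at or above 2538 on every array, and 3 genes lie near or under the dashed limit of 92.3.

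The arrays repeated each other more closely for these genes than for all tested probe sets together, which were not matched to them in signal. The genes had means from 2704 to 22925, whereas the median signals of whole arrays were 157 to 172. The closer repeats are therefore not shown to be particular to these genes. Among the 37, the coefficient of variation had a median of 5.76% with CLE10 and 7.41% with CLE25, against 9.91% and 11.1% over all 13648 probe sets tested. The median within-group SD was 0.10 on the log2 scale, against 0.16 over all probe sets tested. AT1G08360 had the smallest SD of the 37 (0.035) and AT3G22230 the largest (0.46). In 29 of the 37 genes (78.4%) the SD of the signal was larger with CLE25 than with CLE10, as it was in 55.5% of all probe sets tested. This held for 14 of the 37 genes and for 47% of all probe sets without CLE25 replicate 1.

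The median deviation of the 37 genes from their own means was 0.12 on CLE25 replicate 1 and between -0.07 and 0.003 on the other 5 arrays. On CLE25 replicate 1, 33 of the 37 genes lay above their own mean, compared with 9 to 19 genes on each other array. CLE10 replicate 3 had the lowest median, and 11 genes had their lowest signal there. Over all tested probe sets the median deviation of CLE25 replicate 1 was -0.0023. That median does not describe bright probe sets, and 23 of the 37 genes had means over 10000. The 99th percentile of signal was highest on CLE25 replicate 1, at 10987 against 9745 to 10472 on the other arrays. Whether bright probe sets in general were raised there was not tested.

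**Figure D2:**
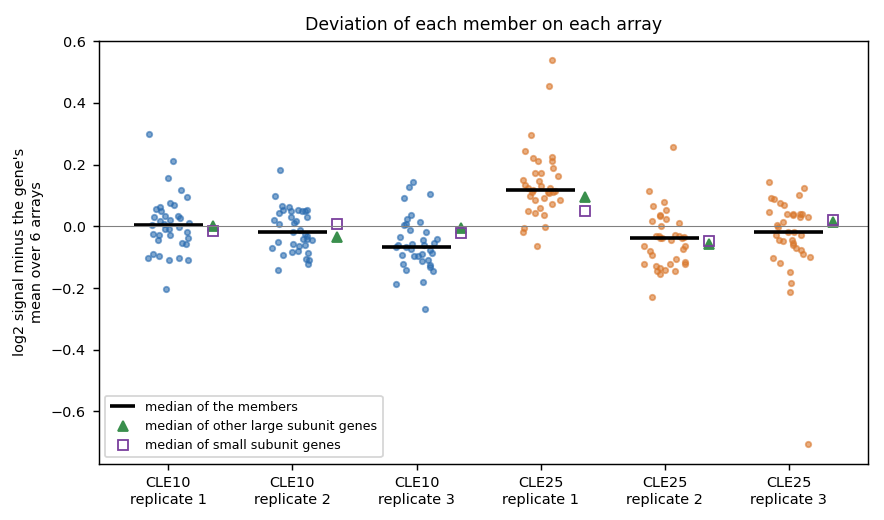
Each point is 1 of the 37 genes, plotted as its log2 signal minus its mean over the 6 arrays, and black bars are medians. The median of CLE25 replicate 1 (0.12) lies above those of the other 5 arrays, and the medians of other large subunit genes (triangles) and of small subunit genes (squares) are also highest there, at 0.10 and 0.05.

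CLE25 was compared with CLE10 by limma over all 13648 probe sets above the limit, with log2 fold changes as CLE25 minus CLE10 and p-values adjusted by Benjamini-Hochberg over all of them. None of the 37 genes passed an adjusted p of 0.05 (0 of 37, where 0% of all probe sets passed), and 0 had an unadjusted p under 0.05 (4.21% of all probe sets). The smallest unadjusted limma p among them was 0.108, and every adjusted p was 0.999 or above. With a replicate block, 0 of the 37 passed and the smallest adjusted p was 0.833. In a root tip of many cell types, fewer cells of a type and less RNA per cell cannot be told apart, and scaling to a common mean would hide a change of all transcripts.

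The 37 log2 fold changes had a median of 0.05, against -0.0024 over all probe sets tested, where 49.4% were above 0. Without CLE25 replicate 1 the median of the 37 was 0.01. With quantile normalization, which makes the signal distributions of the arrays equal, 26 of 37 were above 0 and the median was 0.02. The confidence intervals apply to each gene singly and rest on array-to-array spread that may be technical. They do not cover a change hidden by scaling. The 95% interval lay inside 1.5-fold either way for 36 of 37 genes, and inside 1.3-fold for 33 of 37. Over all probe sets, which were not matched to these genes in signal, the shares were 81.5% and 39.8%. Among the 37, the exception at 1.5-fold was AT3G22230. In 4 genes all CLE25 arrays lay above all CLE10 arrays (4.67% of all probe sets did so), and in 0 genes did they all lie below (4.51% of all). Without CLE25 replicate 1 these counts were 5 (9.49% of all) and 6 (9.17%). Groups that do not overlap stay separate with fewer arrays, so such counts and shares can only stay or rise.

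**Figure D3:**
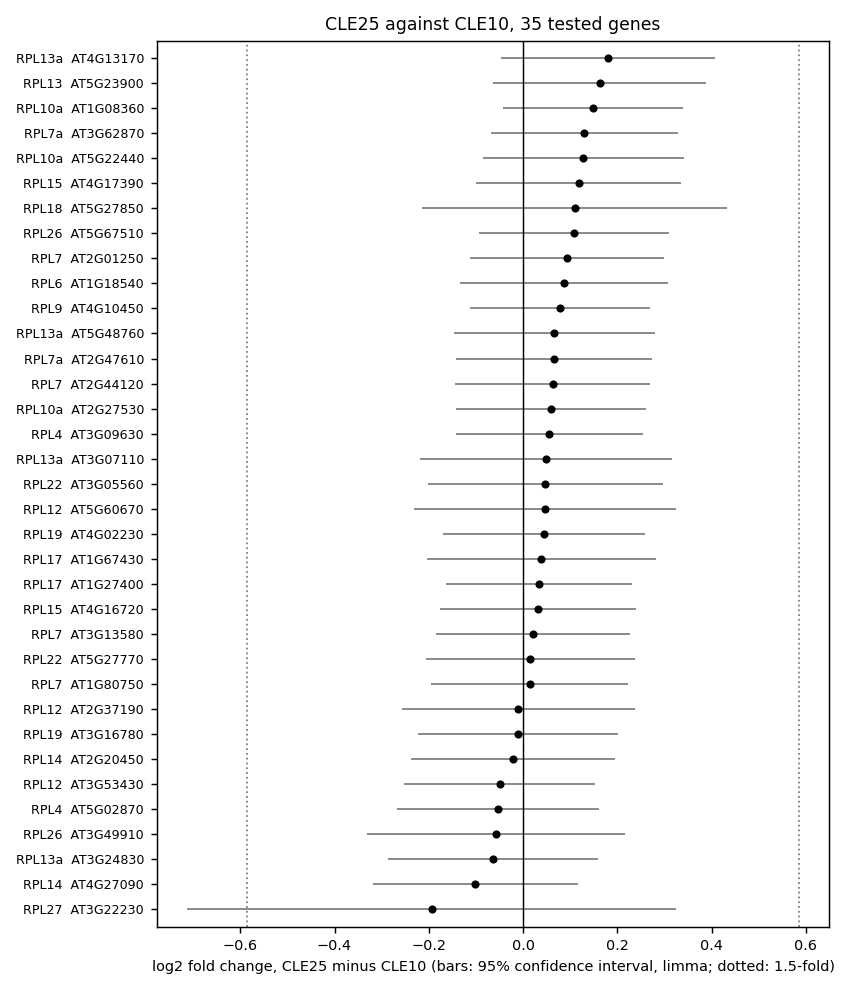
Log2 fold change of CLE25 against CLE10 for 35 of the 37 tested genes (points) with the 95% confidence interval from limma (bars), sorted by value. Every interval shown includes 0, and only that of AT3G22230 reaches past 1.5-fold (dotted lines).

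Proteins of the exit tunnel and its mouth were represented by 6 genes. None was called different between the peptides, where 0% of all probe sets were. RPL4 and RPL17 proteins reach into the tunnel wall, and RPL26 sits near its opening. AT3G09630, an RPL4 gene needed for normal vacuolar sorting and auxin-related growth, had signals of 12342, 13423 and 13439 with CLE10 and 13131, 13544 and 14041 with CLE25, and its log2 fold change was 0.06 ± 0.09 (SE). Its paralogue AT5G02870, with similar mutant defects, had 16102, 15596 and 14378 with CLE10 and 16129, 14250 and 14047 with CLE25, and its log2 fold change was -0.05 ± 0.10. With all arrays the groups of both genes overlapped, and the small differences of the means pointed in opposite directions. Without CLE25 replicate 1 the log2 fold changes were 0.08 for AT3G09630 and -0.12 for AT5G02870.

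The RPL17 genes AT1G27400 and AT1G67430 had log2 fold changes of 0.03 ± 0.09 (SE) and 0.04 ± 0.11. Without CLE25 replicate 1 these were 0.04 and -0.03. The RPL26 gene AT3G49910 had 26426, 21503 and 22135 with CLE10 and 25968, 19424 and 22097 with CLE25, and its log2 fold change was -0.06 ± 0.13. Its highest arrays were replicate 1 of both peptides, and without CLE25 replicate 1 its log2 fold change was -0.17. AT5G67510, the other RPL26 gene, had 8447, 8151 and 8835 with CLE10 and 9507, 8561 and 9352 with CLE25, and its log2 fold change was 0.11 ± 0.09. Of its CLE25 arrays, 2 lay above every CLE10 array and 1 did not.

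Proteins of the stalks and the factor-binding side came from the RPL10a, RPL12 and RPL9 families, with 7 tested genes, 5 of them higher with CLE25. RPL10a forms the stalk on the side where used tRNA leaves. AT1G08360, an RPL10a gene, had 11514, 12021 and 11726 with CLE10 and 13395, 12957 and 12718 with CLE25, and its log2 fold change was 0.15 ± 0.09 (SE; limma unadjusted p = 0.118). This was 1 of the 4 genes whose groups did not overlap, and each group spread over less than the gap between the means. AT5G22440 had 10322, 9264 and 9102 with CLE10 and 11258, 10248 and 9845 with CLE25, and its log2 fold change was 0.13 ± 0.10. PGY1 (AT2G27530), the RPL10a gene known as PIGGYBACK1 from its effect on leaf polarity, had 10419, 9898 and 9848 with CLE10 and 11182, 10341 and 9939 with CLE25, and its log2 fold change was 0.06 ± 0.09. The groups of both of these genes overlapped, and without CLE25 replicate 1 the log2 fold changes were 0.07 for AT5G22440 and 0.01 for PGY1.

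RPL12 proteins form the base of the stalk at which elongation factors bind. AT3G53430 had 14848, 13952 and 14585 with CLE10 and 14640, 13051 and 14252 with CLE25, and its log2 fold change was -0.05 ± 0.09 (SE). AT5G60670 had 7392, 8550 and 9285 with CLE10 and 8482, 10172 and 7491 with CLE25, and its log2 fold change was 0.05 ± 0.13. AT2G37190, the remaining RPL12 gene, had a log2 fold change of -0.01 ± 0.11. Without CLE25 replicate 1 the values were -0.08 for AT3G53430, 0.06 for AT5G60670 and -0.12 for AT2G37190. With all arrays, all 3 had overlapping groups. The RPL9 gene AT4G10450 was another of the 4 genes without overlap, with 5131, 5436 and 5523 with CLE10 and 5653, 5643 and 5685 with CLE25. Its CLE25 arrays lay close together, with an SD of 21.5, and its log2 fold change was 0.08 ± 0.09.

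The RPL19 proteins, which reach across to the small subunit, gave values close to 0. AT3G16780 had 6992, 6648 and 7549 with CLE10 and 7322, 6485 and 7222 with CLE25, and its log2 fold change was -0.01 ± 0.10 (SE). AT4G02230 had a log2 fold change of 0.04 ± 0.10. The groups overlapped in both.

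The other families hold proteins that bind and brace the ribosomal RNA. The genes with the smallest p in the positive direction included AT4G13170 (RPL13a), AT5G23900 (RPL13), AT3G62870 (RPL7a) and AT4G17390 (RPL15). AT4G13170 had 5214, 5224 and 4715 with CLE10 and 6260, 5102 and 5856 with CLE25, and its log2 fold change, 0.18 ± 0.10 (SE), was the highest of the 37 (limma unadjusted p = 0.108). Without CLE25 replicate 1 it was 0.12, and without CLE25 replicate 2 it was 0.26 (limma unadjusted p = 0.028, adjusted p = 0.728). AT5G23900 had 7058, 7436 and 5959 with CLE10 and 7825, 7449 and 7528 with CLE25, and its log2 fold change was 0.16 ± 0.10. Its groups were separate by only the gap between 7436 and 7449.

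AT3G62870 had 16351, 16033 and 15461 with CLE10 and 18482, 16887 and 17025 with CLE25, and its log2 fold change was 0.13 ± 0.09 (SE). It completes the 4 genes without overlap. AT4G17390 had 15718, 15371 and 15328 with CLE10 and 18827, 15641 and 16094 with CLE25, and its log2 fold change was 0.12 ± 0.10, which was 0.04 without CLE25 replicate 1. In both of these genes CLE25 replicate 1 was the highest array.

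With all 6 arrays, lower values with CLE25 were fewer (9 of 37) and as small. Without CLE25 replicate 1, 17 of the 37 were lower. AT4G27090, an RPL14 gene, had 18369, 16826 and 16102 with CLE10 and 17347, 15303 and 15177 with CLE25, and its log2 fold change was -0.10 ± 0.10 (SE). Its paralogue AT2G20450 had 5028, 4821 and 5664 with CLE10 and 5432, 4905 and 4938 with CLE25, and its log2 fold change was -0.02 ± 0.10. RPL14 was the only family with several tested genes in which none was higher with CLE25. AT3G24830, of the RPL13a family, had 14605, 15045 and 13484 with CLE10 and 15229, 12620 and 13483 with CLE25, and its log2 fold change was -0.06 ± 0.10. With all arrays the groups overlapped in each of these genes. Without CLE25 replicate 1 the log2 fold changes were -0.16 for AT4G27090, -0.07 for AT2G20450 and -0.14 for AT3G24830.

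AT3G22230, the single RPL27 gene of the list, was the most variable of the 37. It had 11037, 9368 and 8564 with CLE10 but 13050, 8240 and 5497 with CLE25, so the highest and the lowest of its 6 signals were both CLE25 arrays. With both peptides its signal fell from replicate 1 to replicate 3. Its log2 fold change of -0.19 ± 0.24 (SE) was the lowest of the 37, with a 95% confidence interval from -0.71 to 0.32. With a replicate block it was -0.19 ± 0.14 (limma unadjusted p = 0.193, adjusted p = 0.882). Without CLE25 replicate 3 it was 0.11, and without CLE25 replicate 1 it was -0.51 ± 0.17 (limma unadjusted p = 0.010, adjusted p = 0.993). AT5G27850, an RPL18 gene, was also spread by 1 array, with 22966 on CLE25 replicate 1 and 15119 to 17098 on the other 5. Its log2 fold change was 0.11 ± 0.15, and -0.09 without that array. A further 11 tested genes belong to RPL6, RPL7, RPL7a, RPL13a, RPL15 and RPL22. All 11 had slightly positive log2 fold changes, from 0.01 to 0.09, and overlapping groups. Without CLE25 replicate 1, 6 of the 11 were above 0, and the values ran from -0.09 to 0.06. They include the whole RPL7 family, where AT1G80750, AT2G01250, AT2G44120 and AT3G13580 had 0.01 ± 0.10 (SE), 0.09 ± 0.09, 0.06 ± 0.09 and 0.02 ± 0.09.

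Paralogue use was followed as the log2 difference between a gene and the other tested genes of its family on the same array, which cancels the scale of the array. Only the change of this difference between the peptides was compared. In 13 families with at least 2 tested genes there were 23 such comparisons, 9 of them simple pairs. The changes ran from -0.17 to 0.16 with a median size of 0.06, and none passed (exact permutation tests, two-sided, smallest p = 0.1, smallest adjusted p = 0.767). With 3 arrays per group this test cannot go below 0.1. In 7 of the 13 families every tested gene was higher with CLE25, in 1 family none was, and in 5 families the genes had mixed signs. These counts were 2, 2 and 9 without CLE25 replicate 1.

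The RPL13a family had the widest range of log2 fold changes, from -0.06 to 0.18. AT4G13170 stood against its 3 paralogues at -0.94, -0.93 and -1.01 on the CLE10 arrays and at -0.83, -0.82 and -0.74 on the CLE25 arrays, a change of 0.16 ± 0.04 (SE). AT3G24830 stood at 1.04, 1.11 and 1.01 with CLE10 and at 0.88, 0.92 and 0.86 with CLE25, a change of -0.16 ± 0.03. In both the groups were separate, each with an exact permutation p of 0.1 and an adjusted p of 0.767. These values share arrays and paralogues, so they are not independent of each other. The other RPL13a genes, AT3G07110 and AT5G48760, changed against the rest by -0.01 ± 0.09 and 0.01 ± 0.11.

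PGY1 was the remaining case of separate groups, so these were 3 of 23 comparisons, where the groups did not overlap in 9.18% of single probe sets. It stood against the other RPL10a genes at -0.07, -0.09 and -0.07 with CLE10 and at -0.14, -0.16 and -0.17 with CLE25, a change of -0.08 ± 0.01 (SE; exact permutation p = 0.1, adjusted p = 0.767). Both groups were tight, with SDs of 0.015 and 0.018. The 9.18% is a share of single signals and not of differences between paralogues, so it is not a like measure for these comparisons. The RPL26 pair had the largest change in size, -0.17 ± 0.13 for AT3G49910 against AT5G67510, but its groups overlapped. On leaving out an array this change ran from -0.07 to -0.25, and with quantile normalization it was -0.18 ± 0.05 (exact permutation p = 0.1, adjusted p = 0.575). The RPL4 pair changed by 0.11 ± 0.12 for AT3G09630 against AT5G02870 (0.03 to 0.20 on leaving out an array), and AT5G60670 changed by 0.08 ± 0.22 against the other RPL12 genes. The RPL4 and RPL12 groups overlapped too.

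**Figure D4:**
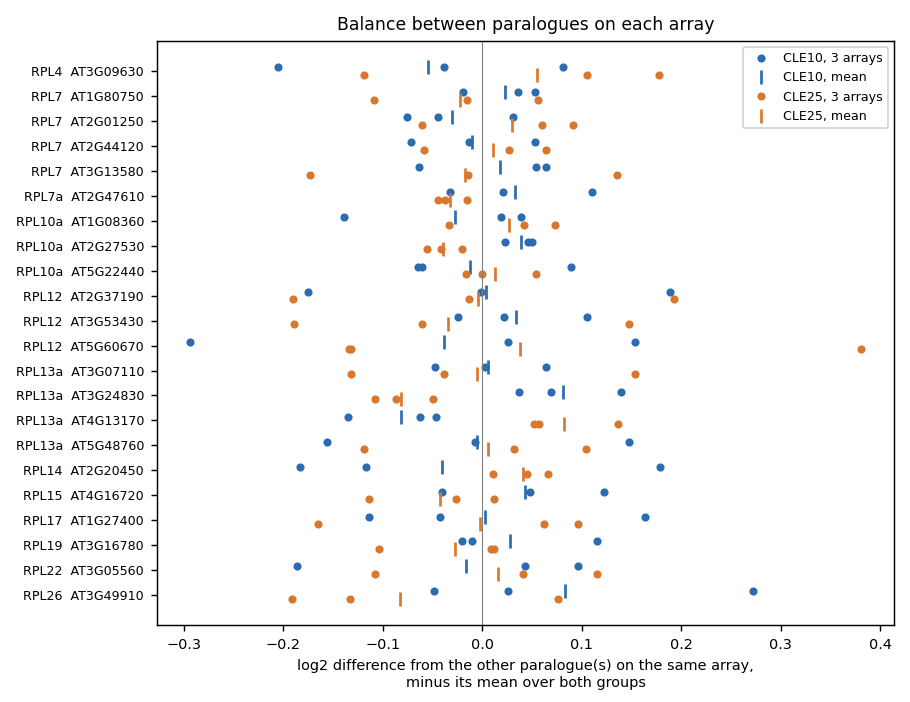
Log2 difference between a gene and the other tested gene or genes of its family on the same array, shown minus the mean of both groups, for 22 comparisons in 12 families. Groups are separate for AT2G27530 (PGY1), AT3G24830 and AT4G13170, and they overlap in the other 19.

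In the rest of the cytosolic ribosome no gene was called either, where 0% of all 13648 probe sets tested were called. Of 70 listed genes for the remaining large subunit proteins, 42 had a probe set of their own and 38 were tested, of which 27 were higher with CLE25 and 0 passed, with a median log2 fold change of 0.05. Of 91 listed small subunit genes, 45 were measured and 42 tested, of which 29 were higher and 0 passed, with a median of 0.04. Without CLE25 replicate 1 these counts were 19 of 38 and 22 of 42, with medians of 0.0018 and 0.0058. The widest value among both lists belonged to AT4G39200, an RPS25 gene of the small subunit, with 0.49 ± 0.10 (SE; limma adjusted p = 0.416), outside the range of the large subunit genes. Whether the lists differ from each other was not tested.

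Genes that make or use ribosomes also showed no called difference, where 0% of all 13648 probe sets tested were called. In the ribosome biogenesis list, 6 of 25 genes were tested, 4 were higher with CLE25 and 0 passed. AT2G44860, which encodes the RPL24-like assembly factor of the large subunit, had 3365 ± 232 (SD) with CLE10 and 3907 ± 315 with CLE25, and its log2 fold change was 0.21 ± 0.10 (SE; limma adjusted p = 0.999). The PESCADILLO gene AT5G14520 and the BOP1 gene AT2G40360, whose products act together in large subunit assembly, had -0.03 ± 0.12 and 0.12 ± 0.11. In the translation factor list, 7 of 20 were tested, 4 were higher and 0 passed, with values from -0.23 to 0.22. RAPTOR1 (AT3G08850), the partner of the growth kinase TOR, had 0.006 ± 0.15.

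Large subunit proteins of the plastid ribosome, which is a separate machine built in plastids, were tested for 5 of 21 listed genes. Of these, 4 were higher with CLE25 and 0 passed, with a median log2 fold change of 0.16 and values from -0.04 to 0.22. Among markers of dividing cells, the kinase genes AUR1 and AUR2 had log2 fold changes of 0.24 ± 0.12 (SE) and -0.04 ± 0.14, and their part in the values of the ribosomal genes was not tested. The control probe set for 25S ribosomal RNA had 8574 ± 658 (SD) with CLE10 and 8119 ± 1245 with CLE25 (exact permutation test, two-sided, p = 0.7). That for 5S ribosomal RNA had 85.7 ± 13.3 and 147 ± 66.8, which differ by 0.64 on the log2 scale (two-sided exact permutation p = 0.3), and its highest signal, 213, was on CLE25 replicate 1. The labelling starts from poly(A) tails, so these signals do not measure the ribosomal RNA content of the root. RNA quality was read as the log2 signal of 3' controls minus that of 5' controls. Averaged over actin and GAPDH it was 2.16 ± 0.12 with CLE10 and 2.21 ± 0.18 with CLE25 (exact permutation test, two-sided, p = 0.7). With 3 arrays per peptide, this does not show equal RNA quality. CLE25 replicate 1 raised the CLE25 mean: without it CLE25 minus CLE10 was -0.03, against 0.05 with all arrays. The part of RNA quality in the gene values of that array was not tested. The controls were far apart: actin had 3.77 ± 0.32 with CLE10 and 3.83 ± 0.39 with CLE25, and GAPDH 0.55 ± 0.09 and 0.59 ± 0.15.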

How the data were processed

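The authors deposited intensity values, 1 linear probe-set signal per array, and GCOS 1.4 is named in the submitters' processing notes with no settings. Per the labels' protocols, total RNA was biotin-labelled as cRNA for an Affymetrix array. The 6 arrays were grouped by title. The values were used as deposited and analysed as log2(signal + 6.03), the pseudocount being the 10th percentile of all values. Of 22810 probe sets, 64 controls and those with a mean log2 value under the 40th percentile (6.62) were left out, which kept 13648. CLE25 was compared with CLE10 with limma 3.58.1 (R 4.3.3, lmFit and eBayes with trend), tested on simulated data, with Benjamini-Hochberg adjustment over all 13648. Nothing in the labels ties the arrays to separate cultures, so the p-values reflect array-to-array spread that may be technical; for arrays, their number limits the precision.

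Gene names came from the platform annotation, updated by gene ID through the RefSeq table of assembly TAIR10.1 (names only), and protein families were assigned from general knowledge. Of the probe sets, 13513 named 1 gene, 503 several and 8730 none here. All 40 large subunit probe sets are of the array maker's plain type, not of those shared between transcripts. The members and lists were chosen with earlier results of these data known. The genes described with all arrays were up to 8 with the smallest p in each direction, genes known from mutants, and the extremes of the 4 families whose fold changes lay farthest apart; AT4G10450, AT5G27850, the dim genes and single values of other paralogues were added after their values were seen. The single values of 1 family are not reported here. Same-numbered arrays deviated together with correlations of 0.08, 0.14 and 0.22, against -0.16 to 0.02 for arrays with different numbers. No label explains the numbers, so the main fit used no block. With a block, 814 probe sets had an unadjusted limma p under 0.05, against 575 without it. Alternatives were other filters, pseudocount, normalization, variance model, array weights, a replicate block, each array left out and other choices of probe set.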

Additional observations from a re-analysis of the deposited data

How the results depend on the processing

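No large subunit gene was called by limma under any alternative, and at an unadjusted p under 0.05 there were 0, or 1 without CLE25 replicate 1 (AT3G22230) or CLE25 replicate 2 (AT4G13170). The paralogue test gave 0 calls throughout, but it cannot reach the threshold with 3 arrays per group. Over all probe sets 0 were called (575 at an unadjusted p under 0.05, 616 with no variance trend), and 0 to 0 without each array in turn. The fit with a replicate block called 1 probe set, which is none of these genes, and the block changed no other call; no label says that the numbers pair arrays. The number of genes higher with CLE25, 28 of 37, was 20 (without CLE25 replicate 1) to 29 on leaving out an array, 26 with quantile normalization and 30 of 40 with no filter on dim probe sets. Their median log2 fold change ran from 0.012 (without CLE25 replicate 1) to 0.081 (without CLE25 replicate 2). Of 18 genes named by rule, 13 kept their sign in all 15 alternatives. The sign turned only on leaving out an array for AT3G22230 (-0.51 to 0.11), AT3G49910 (-0.17 to 0.043), AT2G20450 (-0.069 to 0.047), AT3G16780 (-0.054 to 0.044) and AT5G60670 (-0.071 to 0.15), and for the balance of AT5G60670 in its family (-0.095 to 0.17). The RNA quality difference, 0.05, ran from -0.026 to 0.15 on leaving out an array. In an alternative chosen after seeing the data, leaving out each array in turn, the families with every gene higher (7 of 13) numbered 2 (without CLE25 replicate 1) to 7, with 4 without CLE10 replicate 3. Genes with a larger SD with CLE25 (29 of 37, and 55.5% of all probe sets) numbered 14 without CLE25 replicate 1 (47% of all). The highest number was 30, without CLE25 replicate 3 (43.9% of all). Genes with all CLE25 arrays higher (4, and 4.67% of all probe sets) numbered 4 to 12. They were 8 without CLE10 replicate 1 (7.68% of all) and 12 without CLE25 replicate 2 (10.1% of all). Those with all lower (0, and 4.51% of all) numbered 0 to 6, with 6 without CLE25 replicate 1 (9.17% of all). Whichever array was left out, both shares over all probe sets were larger than with no array left out. Groups that do not overlap stay separate with fewer arrays, so these counts and shares can only stay or rise. The causes of the other shifts were not tested. Each gene had 1 plain probe set, so both probe-set choices left every value as it was. Dim signals limit AT3G51190, AT3G48960 and AT2G47570, which have no test.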
